A study of Mus musculus with 6 samples.

Results

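The circadian clock genes Bhlhe40, Bhlhe41, Clock, Per1, Per2, Per3, Cry1, Cry2, Dbp and Nr1d1 were followed in the pancreas of mice with and without a floxed Sirt1 allele. They were taken by name from the deposited array table, keeping a transcript cluster (the group of probes that the array assigns to a gene) only where the platform annotation gives it a single symbol. Of these 10 genes, 9 were measured among 22180 genes in all, each by 1 cluster. Per2 had no value, because the only cluster that names it carries 2 symbols. The mice were Pdx1Cre;Sirt1ex4F/F males (n = 3), called Sirt1-deficient here, and the controls were Pdx1Cre males (n = 3), all 6 months old, with total RNA of the whole pancreas hybridized to 1 Affymetrix Mouse Gene array per animal. Both groups carry the Pdx1Cre transgene B6.FVB-Tg(Ipf1-cre)6Tuv/J, whose Cre acts in exocrine and endocrine pancreatic cells, so that vessels, stroma and immune cells are not its target. In the Sirt1-deficient mice Cre deletes the floxed exon 4 of Sirt1. The paper reports a truncated form of Sirt1, with less Sirt1 RNA by quantitative PCR in islets and in total pancreas. It describes the expression of this Cre line as more mosaic, above all in exocrine tissue. The time of day at which the pancreata were taken and the feeding state of the animals at that time are not stated for these arrays in the sources used here.

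The mammalian clock is a loop of transcription and repression that runs in nearly every cell. CLOCK or its relative NPAS2 pairs with BMAL1, the product of Arntl, and the pair binds E-boxes to switch on the Per, Cry, Dbp, Nr1d1, Bhlhe40 and Bhlhe41 genes, whose PER, CRY and BHLHE40 or BHLHE41 proteins then repress the pair. NR1D1 (REV-ERB alpha) represses Arntl and Nfil3 in a coupled loop, DBP activates D-box genes that NFIL3 represses, and transcripts of the Arntl arm and of the Per, Dbp and Nr1d1 arm therefore peak at opposite times of day. Feeding, glucocorticoids and cyclic AMP set the clock of peripheral organs, and in mouse liver and fibroblasts SIRT1 is known to bind CLOCK and to deacetylate BMAL1 and PER2.

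Promoter sequences show which members carry the letters that these factors bind. RefSeq promoters (assembly GRCm38.p6) were found for 8 of the 10 members, 11 promoters in all, each 300 bases long around a transcription start. Both strands were searched for the E-box CACGTG, the D-box TTATGTAA, the core TAGGTCA shared by REV-ERB and ROR factors, and the cyclic AMP element TGACGTCA, and no 2 matches in the members overlapped. The E-box was present in 3 members, Per1 (first base at -166 from the start, in 1 of its 2 promoters), Cry1 (-60) and Bhlhe41 (-153). It was present in 7.15% of all 32851 promoters. The D-box was present in 1 member, Per3, which held it at -205 and -158, and in 0.938% of all promoters. The other motifs were in 0 members, against 2.61% of all promoters for TAGGTCA and 1.79% for TGACGTCA. Of the clock genes outside the 10, Ciart, which encodes a repressor of the CLOCK and BMAL1 pair, held 3 E-boxes and is shown for comparison. Others searched but not shown were Tef, with an E-box in each of its 2 promoters, Arntl and Nfil3, with TAGGTCA at 30 (in 1 of 2 promoters) and -12, and Hlf, with TGACGTCA at -9. Npas2 and Nr1d2 held none of the motifs. The members that hold a motif are shown so that the bases around each match can be read. The windows run 5′ to 3′ on the strand of the gene, with the motif in capitals. A match describes the letters in this window only.
Per1, chr11:69098753-69098818, plus strand: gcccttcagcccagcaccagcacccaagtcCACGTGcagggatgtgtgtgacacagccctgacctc
Cry1, chr10:85185079-85185144, minus strand: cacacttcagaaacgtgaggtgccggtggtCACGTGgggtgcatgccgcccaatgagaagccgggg
Bhlhe41, chr6:145865538-145865603, minus strand: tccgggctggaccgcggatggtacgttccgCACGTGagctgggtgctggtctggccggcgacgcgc
Per3, chr4:151044786-151044900, minus strand: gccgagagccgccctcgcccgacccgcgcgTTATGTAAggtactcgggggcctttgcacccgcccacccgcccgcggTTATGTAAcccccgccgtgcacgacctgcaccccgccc
Ciart, chr3:95882237-95882374, minus strand: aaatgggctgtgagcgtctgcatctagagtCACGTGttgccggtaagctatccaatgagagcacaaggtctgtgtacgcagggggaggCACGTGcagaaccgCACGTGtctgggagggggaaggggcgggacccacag

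The deposited values are log2 expression values from Robust Multi-array Average (RMA) processing, so 1 unit is a doubling. The 6 arrays correlated with each other at 0.974 to 0.984, with medians of 4.48 to 4.57. Sirt1 itself read 5.59, 5.69 and 5.83 in the Sirt1-deficient pancreata and 5.84, 5.78 and 5.80 in the controls. Its log2 fold change was -0.11 (SE 0.11, limma p = 0.343, exact permutation p = 0.3). Arrays of this kind place probes along the whole transcript, so the cluster checks the labels only in part. The paper measured lower Sirt1 RNA in total pancreas by quantitative PCR, and the cause of the difference from this cluster was not tested. Acinar markers gave the tissue its label, with 11 measured markers averaging 12.02 to 12.04 in the Sirt1-deficient arrays and 11.98 to 12.02 in the controls, and 0 were called by limma (1 at a p under 0.05). Values of Bhlhe41 lay near the floor: 4.66 is the 95th percentile of olfactory receptor genes, which the pancreas is not known to use, and 9511 of the 22180 genes averaged below it.

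The first comparison asked whether the clock genes differ between Sirt1-deficient and control pancreata. Bhlhe40, a repressor of the clock, was 1.28 times lower in the Sirt1-deficient pancreata and was the single member past the threshold, an unadjusted limma p under 0.01. Cry1 averaged 1.32 times lower and Cry2 1.16 times higher, each with no overlap between the groups but past that threshold in neither case. The Clock and Dbp values of the groups overlapped. In all, 1 of 9 members was lower and 0 were higher, where 0.888% of all 22180 genes were lower and 0.739% higher. At a p under 0.05 the count was 2 of 9, Bhlhe40 and Cry1, where it was 6.66% of all genes. At an adjusted p under 0.05 it was 0 of 9, where it was 0.0135% of all genes. The groups did not overlap for 3 of 9 members, against 11.7% of all genes. The median log2 fold change was -0.11 over the members and -0.02 over all genes, with 7 members negative and 2 positive. With 3 arrays per group the exact permutation p cannot fall below 0.1, so the limma p rests on its model of the variance. In whole tissue, fewer cells of a type and less RNA per cell cannot be told apart.

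**Figure D1:**
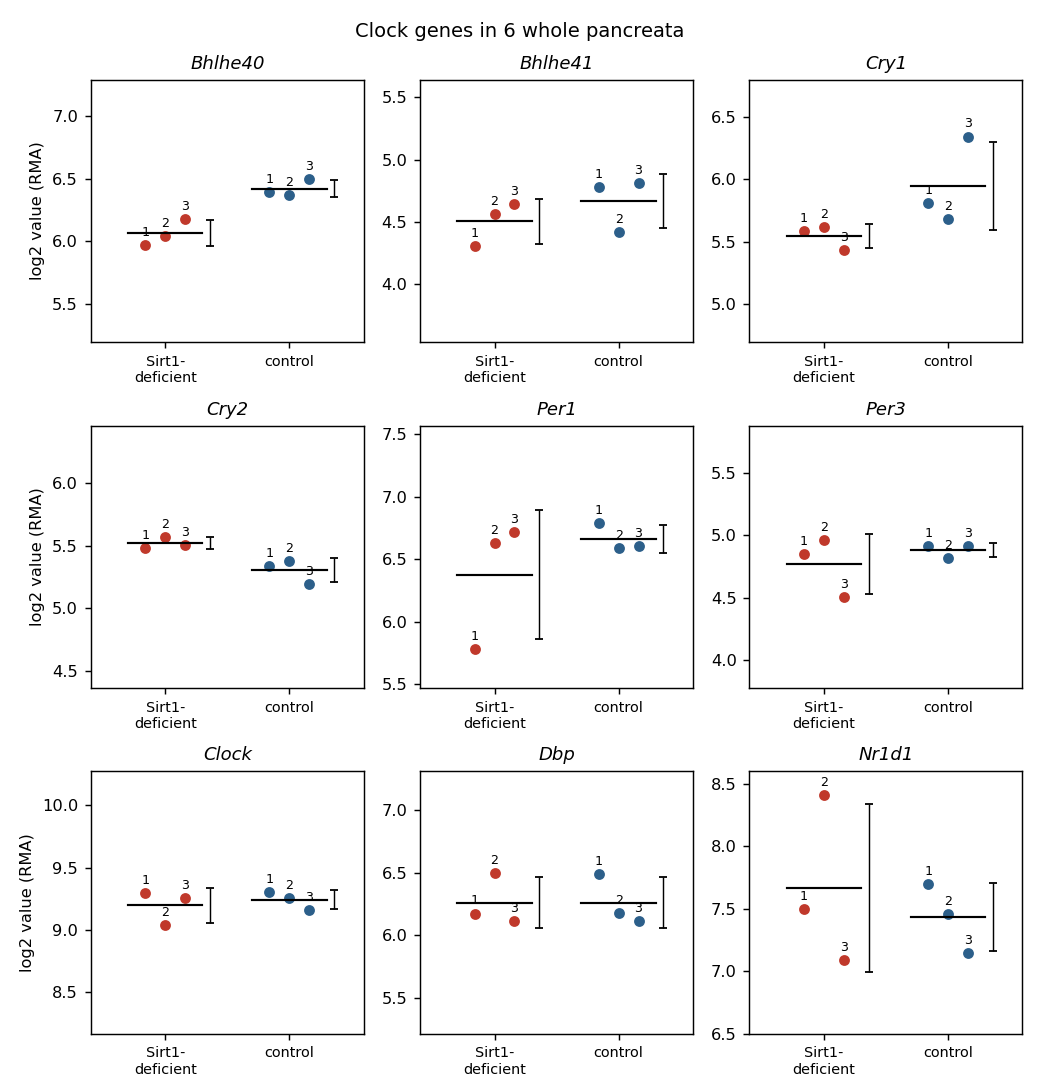
Log2 values (RMA) of the 9 measured clock genes, a panel per gene, with Sirt1-deficient pancreata (red) left of controls (blue). Each numbered point is 1 pancreas, the line is the group mean and the bar beside it the SD (n = 3); all panels span the same log2 range, each centred on its own mean. Bhlhe40 and Cry1 points lie lower and Cry2 points higher in the Sirt1-deficient group, while Nr1d1 of Sirt1-deficient pancreas 2 (8.41) and Per1 of Sirt1-deficient pancreas 1 (5.78) stand away from the rest.

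Among the repressors, Bhlhe40 and Bhlhe41 encode related basic helix-loop-helix proteins that bind E-boxes and oppose CLOCK and BMAL1. Bhlhe40 read 5.97, 6.04 and 6.18 in the Sirt1-deficient pancreata and 6.39, 6.37 and 6.50 in the controls. All 3 Sirt1-deficient values lay below all 3 control values. The means were 6.06 ± 0.11 and 6.42 ± 0.07 (SD, n = 3 each), a log2 fold change of -0.36 (SE 0.11, 95% interval -0.60 to -0.11). It ranked 312th of 22180 genes by p (limma p = 0.00841, adjusted p = 0.598, exact permutation p = 0.1, the smallest possible). The call was lost with arrays centred on their medians (limma p = 0.0154, no exact permutation p being able to fall below 0.1) and with all transcript clusters tested (limma p = 0.0133, same exact permutation limit). It was also lost on leaving out any 1 array other than Sirt1-deficient pancreas 3, and over these 6 fits the change was -0.41 to -0.31. With the replicate block the limma p was 0.0109 (exact permutation limit as before). Bhlhe41 read 4.31, 4.56 and 4.65 in the Sirt1-deficient pancreata and 4.78, 4.42 and 4.81 in the controls. Its groups overlapped, its mean of 4.59 was under the dim limit, and its log2 fold change was -0.17 (SE 0.14, limma p = 0.275, exact permutation p = 0.4). It was -0.07 without Sirt1-deficient pancreas 1 and -0.29 without control pancreas 2.

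Markers of other cells were set beside the lower Bhlhe40. Of 12 measured islet endocrine markers, 2 were lower in the Sirt1-deficient pancreata, Ppy (pancreatic polypeptide, -0.83) and Isl1 (an endocrine transcription factor, -0.51), and 0 were higher. In all, 9 of the 12 were negative, with a median of -0.31, and 3 were at a p under 0.05, the third being Gcg (glucagon, -0.53). The mean level of the 12 was 7.01 to 7.29 in the Sirt1-deficient arrays and 7.12 to 7.65 in the controls. Of 8 endothelial markers, 1 was higher, Emcn (0.44), and 3 were at a p under 0.05, with mean levels of 6.39 to 6.46 in the Sirt1-deficient arrays and 6.13 to 6.31 in the controls. Duct, fibroblast, macrophage, lymphocyte, adipocyte and Schwann cell markers gave 0 calls by limma, with 1 gene each of the duct, fibroblast and adipocyte lists at a p under 0.05, and 7 of the 9 lymphocyte markers measured were under the dim limit. Over all genes, 0.888% were lower, 0.739% higher and 6.66% at a p under 0.05. The adjusted limma p was 0.250 for Ppy, 0.566 for Isl1 and 0.600 for Emcn, with an exact permutation p of 0.1 for each. For Gcg they were 0.719 and 0.2. The part of these cells in the Bhlhe40 value was not tested.

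Cry1 and Cry2 encode the cryptochromes, the strongest repressors of CLOCK and BMAL1. Cry1 read 5.59, 5.62 and 5.44 in the Sirt1-deficient pancreata and 5.81, 5.68 and 6.34 in the controls. The groups did not overlap, but 5.62 and 5.68 lay close together and control pancreas 3 stood far above the other controls. The log2 fold change was -0.40 (SE 0.17, 95% interval -0.77 to -0.02, limma p = 0.0407, adjusted p = 0.725, exact permutation p = 0.1), and -0.20 without control pancreas 3. Cry2 values lay the other way, at 5.49, 5.57 and 5.51 in the Sirt1-deficient pancreata and 5.34, 5.38 and 5.20 in the controls. All 3 Sirt1-deficient values lay above the controls, with an SD of 0.05 in the Sirt1-deficient group and 0.10 in the controls. The log2 fold change was 0.22 (SE 0.10, 95% interval -0.02 to 0.45, limma p = 0.0671, adjusted p = 0.78, exact permutation p = 0.1). The difference between the changes of Cry1 and Cry2 was not tested.

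Per1 and Per3 encode period proteins, partners of the cryptochromes, and Per1 is also switched on directly by cyclic AMP and glucocorticoids. Per1 read 5.78, 6.63 and 6.72 in the Sirt1-deficient pancreata and 6.79, 6.59 and 6.60 in the controls. Sirt1-deficient pancreas 1 was low on its own, and the other 5 arrays lay between 6.59 and 6.79. The log2 fold change was -0.28 (SE 0.22, 95% interval -0.78 to 0.21, limma p = 0.231, exact permutation p = 0.6), and 0.01 without that array. Per3 read 4.85, 4.96 and 4.50 in the Sirt1-deficient pancreata and 4.92, 4.82 and 4.92 in the controls. Here Sirt1-deficient pancreas 3 was the low one, at a value under the dim limit of 4.66, and the groups overlapped. The log2 fold change was -0.11 (SE 0.13, limma p = 0.43, exact permutation p = 0.7). The arrays that were low for the 2 Per genes were thus different ones.

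Because Per1 answers to outside signals, the levels of genes known for the same signals were set beside it. Of 16 genes known to respond to cyclic AMP through CREB, Per1 among them, all had a negative log2 fold change, with a median of -0.28. This list, like the others, was chosen with earlier results of these data known, so the shared sign is only a description. The changes ran from -1.91 to -0.01, and 12 of the 16 were not called. The other 4 fell in Sirt1-deficient mice: Fos (-0.87), Egr1 (-1.91), Dusp1 (-0.72) and Ccn1 (-0.73). Over all genes, 12187 of 22180 were negative and 0.888% were lower. Adjusted limma p was 0.391 for Fos, 0.582 for Egr1, 0.393 for Dusp1 and 0.479 for Ccn1, with an exact permutation p of 0.1 for each. Egr1 read 5.04, 4.73 and 5.09 in the Sirt1-deficient pancreata and 8.15, 7.14 and 5.30 in the controls. Control pancreas 3 thus lay near the Sirt1-deficient values. The mean of Fos lay under the dim limit, as did all 3 of its Sirt1-deficient values, so its change has only a bound there and the printed value is that of the fit. The mean deviation of the 16 from their own averages was -0.28, -0.18 and -0.19 in the Sirt1-deficient arrays and 0.35, 0.29 and 0.00 in the controls. These groups did not overlap, and Per1 is itself 1 of the 16. Of 14 glucocorticoid-responsive genes, 2 were higher, the metallothioneins Mt1 (1.13) and Mt2 (0.83), and 1 was lower, Dusp1. Over all genes 0.739% were higher. For Mt1 and Mt2 the adjusted limma p was 0.072 and the exact permutation p 0.1 each. Of the 14, 11 were negative, with a median of -0.21, and the groups did not overlap for 7, where this was so for 11.7% of all genes. The glucocorticoid-induced Tsc22d3 read 5.31, 5.21 and 5.27 in the Sirt1-deficient pancreata and 5.43, 5.36 and 5.41 in the controls, without overlap, with a log2 fold change of -0.14 (SE 0.10, limma p = 0.201, exact permutation p = 0.1). The part of these signals in the clock gene values was not tested.

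None of the activator genes passed the test. Clock, a DNA-binding partner of BMAL1, read 9.30, 9.04 and 9.26 in the Sirt1-deficient pancreata and 9.31, 9.26 and 9.16 in the controls. The groups overlapped, Sirt1-deficient pancreas 2 was the lowest, and the log2 fold change was -0.04 (SE 0.11, 95% interval -0.30 to 0.21, limma p = 0.701, exact permutation p = 0.6). Arntl, the gene of BMAL1, read 7.66, 7.18 and 7.80 in the Sirt1-deficient pancreata and 7.59, 7.63 and 7.64 in the controls. The controls lay within 0.05 of each other, whereas the Sirt1-deficient arrays held both the lowest and the highest value. The log2 fold change of Arntl was -0.07 (SE 0.16, limma p = 0.665, exact permutation p = 1). Npas2, which can stand in for Clock, read 6.24, 5.69 and 6.63 in the Sirt1-deficient pancreata and 5.12, 5.64 and 6.32 in the controls. It was among the most variable clock genes, with groups that overlapped and a log2 fold change of 0.49 (SE 0.30, limma p = 0.138, exact permutation p = 0.4). It was 0.21 without control pancreas 1, 0.27 without Sirt1-deficient pancreas 3, 0.74 without Sirt1-deficient pancreas 2 and 0.81 without control pancreas 3.

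Nr1d1 encodes the nuclear receptor REV-ERB alpha, a repressor of Arntl. It read 7.50, 8.41 and 7.09 in the Sirt1-deficient pancreata and 7.69, 7.45 and 7.15 in the controls. The highest and the lowest of the 6 values were both Sirt1-deficient. The means were 7.67 ± 0.67 and 7.43 ± 0.27 (SD, n = 3 each), and the log2 fold change was 0.24 (SE 0.29, 95% interval -0.42 to 0.89, limma p = 0.438, exact permutation p = 0.8). Without Sirt1-deficient pancreas 2 its sign turned, at -0.14. Nr1d2, its paralog REV-ERB beta, read 6.25, 6.72 and 6.14 in the Sirt1-deficient pancreata and 6.79, 6.47 and 6.32 in the controls, a log2 fold change of -0.16 (SE 0.18, limma p = 0.383, exact permutation p = 0.5). It was -0.03 without control pancreas 1 and -0.33 without Sirt1-deficient pancreas 2. Rora, an activator at the same DNA elements, read 7.28, 7.11 and 7.48 in the Sirt1-deficient pancreata and 7.11, 6.99 and 7.33 in the controls, and the groups overlapped.

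Dbp encodes the D-box activator of clock output. It read 6.18, 6.50 and 6.11 in the Sirt1-deficient pancreata and 6.49, 6.18 and 6.11 in the controls. Each group held 1 high and 2 low arrays, and both means were 6.26, a log2 fold change of -5.55e-05 (SE 0.15, 95% interval -0.33 to 0.33, limma p = 1, exact permutation p = 1). The interval allows a difference of up to 0.33 in either direction, so equal means do not show equal expression. Tef, a relative of Dbp, read 5.75, 6.15 and 6.05 in the Sirt1-deficient pancreata and 6.30, 6.05 and 6.03 in the controls. Hlf, the other relative, spanned 5.17 to 5.45 in the Sirt1-deficient pancreata and 5.24 to 5.46 in the controls. Both overlapped, with log2 fold changes of -0.15 (Tef) and -0.04 (Hlf). Tef had -0.03 without Sirt1-deficient pancreas 1, -0.23 without Sirt1-deficient pancreas 2 and -0.08 as the mean of its 2 clusters. Nfil3, the D-box repressor, read 7.02, 7.04 and 7.26 in the Sirt1-deficient pancreata and 6.79, 6.76 and 7.57 in the controls. Its highest array in each group was number 3, the array with the lowest Nr1d1 of that group.

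**Figure D2:**
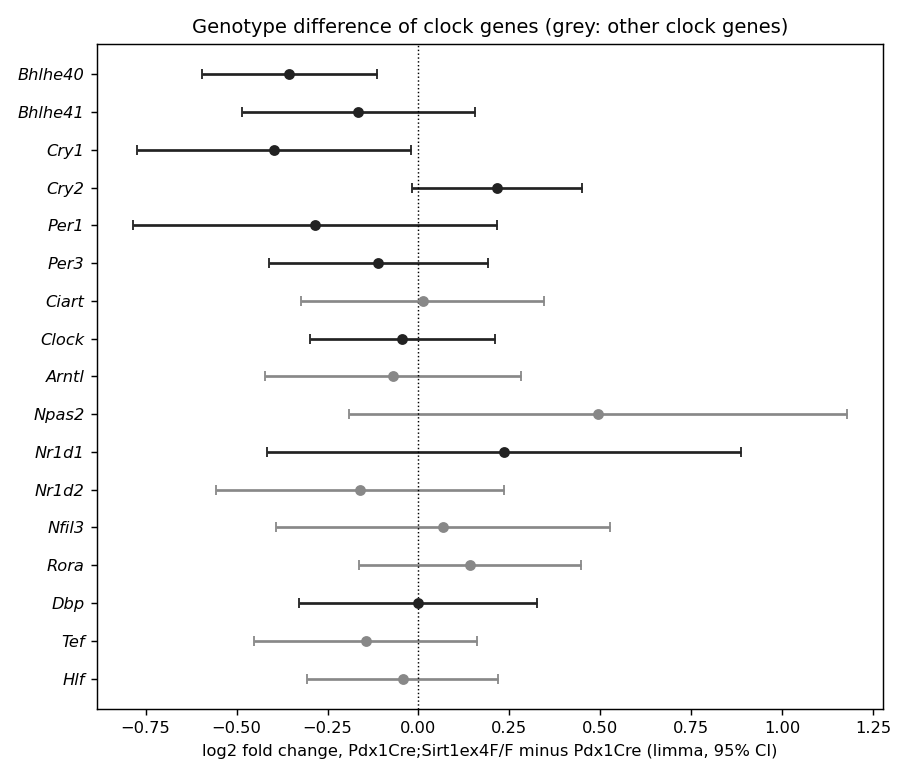
Log2 fold changes, Pdx1Cre;Sirt1ex4F/F minus Pdx1Cre, of the 9 measured members (black) and of 8 other clock genes (grey), with limma 95% intervals (n = 3 per group). The intervals of Bhlhe40 (-0.60 to -0.11) and Cry1 (-0.77 to -0.02) lie below 0 and all others cross it.

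The other genes of the clock pathway came from a list of activators, repressors, nuclear receptors, kinases, ubiquitin ligases and rhythmic outputs. It held 44 names, Noct and Ccrn4l being names of the same gene, and gave 37 measured genes. Of these, 1 was lower, 0 were higher and 36 did not pass, with a median log2 fold change of -0.03 and a range of -0.51 to 0.49. The groups did not overlap for 4 of the 37, where this was so for 11.7% of all genes, and 0.888% of all genes were lower. The lower gene was Herpud1, listed as a rhythmic output but best known as a gene of endoplasmic reticulum stress and protein degradation. It read 10.80, 11.09 and 10.96 in the Sirt1-deficient pancreata and 11.47, 11.31 and 11.58 in the controls, a log2 fold change of -0.50 (SE 0.12, limma p = 0.00226, adjusted p = 0.409, exact permutation p = 0.1). Its call was lost without Sirt1-deficient pancreas 1 (-0.43) and without control pancreas 3 (-0.44). Of 10 measured kinases, ubiquitin ligases and related enzymes of clock proteins, 0 passed in limma, nor did any at a p under 0.05. Among the outputs, the cell cycle kinase Wee1 had a log2 fold change of 0.21 (SE 0.13), Usp2, a deubiquitinase, of -0.01 (SE 0.20). The repressor Ciart had 0.01 (SE 0.15). Nampt, the rate-limiting enzyme of NAD salvage and so of SIRT1's cofactor, read 5.96, 5.87 and 6.41 in the Sirt1-deficient pancreata and 6.08, 5.95 and 6.21 in the controls, which overlapped.

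The spread between animals of 1 group was uneven over the members. The SD within groups of Nr1d1, 0.51, was higher than that of 99.5% of all genes, and than that of 99.8% of the 1738 genes within 0.5 of its mean. That of Per1, 0.38, was higher than that of 97.3% of all genes. At the other end stood Cry2, at 0.08 and above 9.30% of genes, and Bhlhe40, at 0.09 and above 14.5%. The median over the 9 members was 0.20 and that over all genes 0.15. For Per1 the spread was that of the Sirt1-deficient arrays (SD 0.52, against 0.11 in the controls), and likewise for Nr1d1 (0.67 in Sirt1-deficient arrays and 0.27 in controls) and Arntl (0.33 in Sirt1-deficient arrays and 0.02 in controls). For Cry1 it was the opposite (0.10 in Sirt1-deficient arrays and 0.35 in controls). No test of these differences in spread was made.

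The second comparison set the arrays beside each other by clock phase, as the balance between the Per and Dbp arm and Clock. For each array, the mean deviation of Per1, Per3 and Dbp from their own averages over the 6 arrays was taken, less the deviation of Clock, so that a high score means high Per and Dbp and low Clock, each against its own average. The score was -0.34, 0.34 and -0.13 in the Sirt1-deficient pancreata and 0.11, -0.05 and 0.07 in the controls. The controls lay within 0.157 of each other and the Sirt1-deficient arrays spanned 0.686, on both sides of the controls. The means were -0.04 ± 0.35 and 0.04 ± 0.08 (SD, n = 3 each), a difference of -0.09, smaller than the spread of the Sirt1-deficient arrays. The low score of Sirt1-deficient pancreas 1 was mostly that of Per1, whose own balance against Clock was -0.82 there, while its Dbp balance was -0.16 and its Per3 balance -0.05. In Sirt1-deficient pancreas 2 the balances of Per1 (0.29), Per3 (0.32) and Dbp (0.42) were all high. Each of them holds the same low Clock deviation of -0.18. The deviations of the genes themselves were 0.11, 0.14 and 0.24. Their mean of 0.16 lay below the 0.20 of control pancreas 1. In Sirt1-deficient pancreas 3 the balance was -0.36 for Per3, at a value under the dim limit, -0.19 for Dbp and 0.16 for Per1. The difference between the groups was -0.01 with Per1 left out of the score and -0.15 with Dbp left out.

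With Arntl in place of Clock the score was -0.35, 0.57 and -0.31 in the Sirt1-deficient pancreata and 0.19, -0.05 and -0.05 in the controls. Sirt1-deficient pancreas 2 was again the highest and control pancreas 1 the next. The balance of Nr1d1 against Arntl spread the arrays the most, at -0.13, 1.26 and -0.68 in the Sirt1-deficient pancreata and 0.14, -0.14 and -0.45 in the controls. By it, the arrays ran from Sirt1-deficient 3 and control 3 at the low end to control 1 and Sirt1-deficient 2 at the high end, so the order crossed the genotypes. Nr1d1 and Arntl set this order themselves. Of the other 14 clock genes in the map of deviations, 5 (Nr1d2, Dbp, Ciart, Tef and Per3) also had their 2 highest values in the 2 arrays at the high end and 9 did not, Per1 and Clock among them. Per3 was among the 5 by a negligible margin, with a deviation of 0.0889 in control pancreas 1 and 0.0888 in control pancreas 3. This count was made after the values were seen, and no share over all genes was set beside it, so it shows no common order. The time of collection of each animal is not known here, and its part in this order was not tested.

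**Figure D3:**
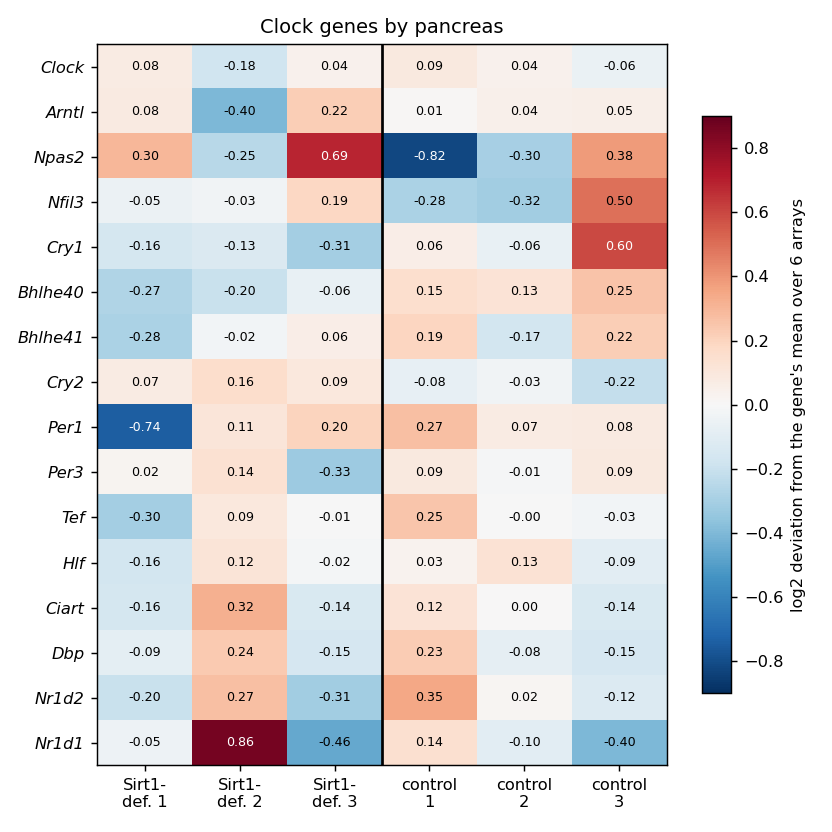
Deviation of each clock gene (rows) from its own mean over the 6 arrays, on the log2 scale, in the 3 Sirt1-deficient pancreata (left of the line) and the 3 controls (right). Red is above and blue below the mean, each cell printing its value. Sirt1-deficient pancreas 2 is low for Arntl (-0.40) and Clock (-0.18) and high for Nr1d1 (0.86), and Sirt1-deficient pancreas 3 and control 3 are low for Nr1d1 and high for Npas2 and Nfil3.

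Correlations over the 6 arrays were computed for Clock with 8 members and for Arntl with 9, 17 relations in all, each with an exact permutation test over the 720 pairings, 2-sided. The strongest was Arntl with Nr1d1. Pearson's r was -0.944 (exact permutation p = 0.0125, adjusted over the 17 0.106) and Spearman's rho -0.829 (exact permutation p = 0.0583, adjusted 0.331). Without the 2 arrays farthest from the median of Arntl, Sirt1-deficient pancreata 2 and 3, r was -0.487, so the size of the relation rests on those arrays. With each array's deviation from its group mean, r was -0.945, and without Sirt1-deficient pancreas 2 it was -0.718. Among all 22180 genes, Nr1d1 had the 35th most negative r with Arntl. Arntl with Dbp gave r = -0.75 (exact permutation p = 0.00833, adjusted 0.106) and rho = -0.829 (exact permutation p = 0.0583, adjusted 0.331). It was -0.835 without the same 2 arrays, -0.581 without Sirt1-deficient pancreas 2 and -0.762 within groups. Over the arrays left without those 2, Arntl spanned only 7.59 to 7.66. The r values over them, for Nr1d1 and for Dbp, therefore cannot show whether a relation holds there. Arntl gave r = -0.677 with Per3, -0.362 with Cry2, -0.126 with Per1, 6.37e-04 with Cry1, 0.029 with Bhlhe41 and 0.295 with Bhlhe40. None of the 17 passed an adjusted p under 0.05 by either measure.

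Clock behaved less evenly. Clock with Arntl had r = 0.799 (exact permutation p = 0.11, adjusted 0.622), which became -0.055 without Sirt1-deficient pancreas 2, the array where both were lowest. Clock with Nr1d1 had r = -0.584 (exact permutation p = 0.218, adjusted 0.741) and rho = 0.086, and r turned to 0.812 without Sirt1-deficient pancreas 2 and control pancreas 3. Clock spanned only 9.26 to 9.31 over the arrays left, so that r does not show a reversed relation. Clock with Dbp gave r = -0.31, with Per3 -0.383 and with Per1 -0.247. Without Sirt1-deficient pancreas 2 alone, r was 0.735 for Clock with Nr1d1 and 0.603 for Clock with Dbp, so both signs turned. The plot of Nr1d1 against Arntl and Clock shows where that array lies.

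**Figure D4:**
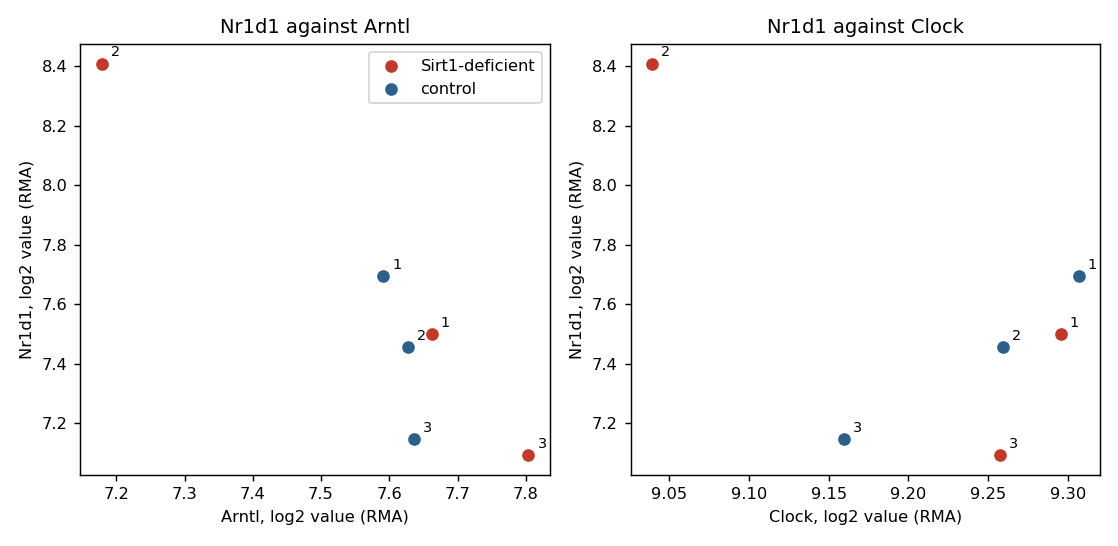
Log2 value (RMA) of Nr1d1 against that of Arntl (left) and of Clock (right), 1 point per pancreas, Sirt1-deficient in red and controls in blue, numbered by replicate. Nr1d1 was highest (8.41) where Arntl was lowest (7.18) and lowest (7.09) where Arntl was highest (7.80), with r = -0.944; against Clock, Sirt1-deficient pancreas 2 lies far from the other 5 points.

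The genes with the array pattern most like the mean of Per1, Per3 and Dbp were ranked by Pearson's r over the 6 arrays, which is a description of 6 points. Among named genes above the dim limit, the highest were Topors (0.993), Enoph1, Lmtk3, Zfp672 and Scamp5 (0.978), and the lowest were Mrps9 (-0.994), Llgl1, Lilra5, Dcp1b and Zdhhc18 (-0.941). Of the 11657 such genes, 87 had an r beyond 0.9 in size. None of these 10 belongs to the clock lists. The lowest value of that mean, -0.27 in Sirt1-deficient pancreas 1, came mostly from Per1 (-0.74), with Dbp at -0.09 and Per3 at 0.02 there. The ranking thus leans on that array. Of the clock genes that the mean did not use, Tef came nearest, with r = 0.947, ranked 37th of 22180 genes. Tef was also lowest in that array, at a deviation of -0.30. Nr1d2 followed with r = 0.859 (260th) and Ciart with 0.804 (524th). Nr1d1 had r = 0.539 and Bhlhe40 0.432. Npas2 had r = -0.722, 683rd from the bottom of the ranking, and Arntl -0.582. Nfil3 had r = -0.226 and Clock -0.416.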

How the data were processed

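Total RNA from 6 whole pancreata was measured on 1 array each. The deposited values are log2 expression levels, made by the authors with oligo and Robust Multi-array Average (background correction, quantile normalization, summary per transcript cluster), versions not given in the sources used here, and genotypes were compared by the authors with limma at p under 0.01. Single probe intensities were not used, so these steps could not be varied, and the number of arrays limits the precision.

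From these values, clusters with exactly 1 symbol were kept, the brightest per gene, and 22180 genes were fitted together with limma 3.58.1 (lmFit and eBayes, R 4.3.3), Pdx1Cre;Sirt1ex4F/F minus Pdx1Cre, with no covariates and Benjamini-Hochberg adjustment over all of them. A gene was called at an unadjusted p under 0.01. The steps were tested on simulated data. Promoters and permutations were run with Python 3.11 and R. Per2 had been planned for the phase score and the correlations and was left out for want of a cluster of its own.

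Named were all members, 13 listed clock genes whatever their values, listed clock genes that were called, Sirt1, called genes of lists set beside a member, and the 5 highest and 5 lowest genes of the pattern ranking, leaving out predicted, RIKEN, RNA, LOC, olfactory and vomeronasal names. The order of arrays over several genes was described after their values were seen. The members and lists were chosen with earlier results of these data known. The 6 labels give a group and a replicate number and name no animal. The paper's methods state that RNA of 3 pancreata per genotype was hybridized, so each array was taken as a separate animal.

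The alternatives were median centring, a second quantile normalization, array weights, limma's trend and robust options, the replicate block, a filter on dim genes, other treatments of several clusters, other thresholds, and each array left out.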

Additional observations from a re-analysis of the deposited data

How the results depend on the processing

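The count of 1 clock gene called became 0 with each array centred on its median, with the replicate block, with all transcript clusters tested and at an adjusted p under 0.05, and 2 at an unadjusted p under 0.05. Leaving out each array in turn gave 0 to 1. Bhlhe40 stayed past the threshold with a second quantile normalization, dim genes left out, limma's trend and robust options, array weights and the mean of a gene's clusters. The cause of the losses was not tested. The median log2 fold change of the members stayed negative, at -0.19 to -0.07, on leaving out each array, and the phase difference ran from -0.28 to 0.06 there. Adding Nr1d1 to the phase score, chosen after seeing the data, gave 0.0047.

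Over 22 genes followed, 307 alternatives kept direction and side of the threshold in 268, lost the call in 10 (Bhlhe40 and Herpud1) and turned the sign in 29. Signs turned for Dbp with median centring (0.015), quantile normalization (0.0104) and array weights (0.017), for Nfil3 with array weights (-0.052), for Usp2 with median centring (0.0091) and quantile normalization (0.0061), and for Nampt with the same (0.013 and 0.0075). On leaving out each array in turn the log2 fold change ran from -0.094 to 0.034 for Clock, -0.46 to 0.014 for Per1, -0.21 to 0.024 for Per3, -0.12 to 0.12 for Dbp, -0.14 to 0.52 for Nr1d1, -0.20 to 0.11 for Arntl, -0.11 to 0.027 for Hlf, -0.14 to 0.095 for Ciart, -0.073 to 0.33 for Nfil3, -0.19 to 0.22 for Usp2 and -0.17 to 0.10 for Nampt.

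Whether the replicate numbers in the labels pair the arrays cannot be decided here. With group means taken out, the correlations of same-numbered arrays were -0.107, 0.164 and 0.163, with none of differently numbered arrays set beside them. The limma p of Npas2 was 0.0419 with the replicate block and 0.138 without it (exact permutation p = 0.4). With the replicate block, 373 genes were called against 361 without it. Signal near background limits Bhlhe41. The mean of Per3 lies just above the dim limit, and its value in Sirt1-deficient pancreas 3 (4.50) lies under it.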
